A study of Mus musculus with 12 samples.

Results

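A microRNA (miRNA) is cut from the stem of an RNA hairpin as a duplex of 2 short strands. One of them, the guide strand, is usually kept by an Argonaute protein and pairs with target mRNAs through its seed, bases 2 to 8. The other, the passenger strand, is usually degraded, and older nomenclature marked it with an asterisk as the star sequence. Some hairpins deliver both strands, and which strand prevails can differ between tissues. Here the star sequences on a mouse miRNA array of blood cells were set against their guide strands. Of the 710 miRNAs on the array, 119 carried an asterisk. Leaving out miR-26b*, miR-30c-1*, miR-140*, miR-674* and miR-712*, which were not part of the set, gave 114 star sequences (16.1%). A guide of the same name without asterisk was on the array for 103 of them. For the other 11 (let-7c-1*, let-7c-2*, miR-24-1*, miR-24-2*, miR-30c-2*, miR-125b*, miR-181a-1*, miR-181a-2*, miR-218-1*, miR-218-2* and miR-1982*) no row had the same name without the asterisk.

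The study compared Tff2-KO mice with WT mice, both of the same inbred background. Tff2 encodes trefoil factor 2, a secreted peptide of the gastric mucosa that also acts in immune cells. Each genotype had 6 mice, 3 males (replicates 1 to 3) and 3 females (replicates 4 to 6), with 1 array per mouse. Only the WT animals came from a commercial supplier, the knockout line having been generated before, so supplier and genotype cannot be told apart. Loss of Tff2 cannot be checked here, since the array holds miRNA probes only. RNA came from all pelleted blood cells, in which fewer cells of a type and less RNA per cell cannot be told apart. The labelled tissue was checked against blood markers. Those chosen for red cells, miR-486, miR-16, miR-451 and miR-144, ranked 1, 3, 44 and 76 of the 710 by mean intensity. miR-451, miR-144, miR-223 (myeloid), miR-150 (lymphoid) and miR-142-5p (haematopoietic) exceeded background on all 12 arrays. miR-181a (lymphoid) did so on 6 of 6 Tff2-KO and 5 of 6 WT arrays. The haematopoietic miR-142-3p did so on 1 of 6 Tff2-KO and 0 of 6 WT arrays, and miR-155 on 2 of 6 Tff2-KO and 3 of 6 WT arrays. Of markers of other tissues, miR-133a (muscle) and miR-124 (brain) exceeded background on all 12 arrays and miR-122 (liver) on 6 of 6 Tff2-KO and 5 of 6 WT arrays, but miR-1 (muscle) on 1 of 6 Tff2-KO and 4 of 6 WT arrays, miR-375 (gut and islets) on 2 of 6 Tff2-KO and 1 of 6 WT arrays, and miR-9 (brain) on 0 of 12. By mean intensity miR-122 ranked 60 of the 710, ahead of miR-144 (76) and miR-142-5p (78). Normalised, miR-122 read 122, 2269 and 4793 (lowest, median, highest) in Tff2-KO mice, against 55.3, 1014 and 6114 in WT mice. The part of these markers of other tissues in the results was not tested. Raw intensity averaged 543.1 to 1151 on the Tff2-KO arrays, against 374.8 to 999.98 on the WT arrays. Intensities below were quantile normalised over the 12 arrays unless called raw. A probe was called above background on an array where its raw intensity exceeded the size of the lowest value there (32 to 88 on Tff2-KO arrays, 40 to 76 on WT arrays), and measured in a genotype where this held on at least 4 of 6 arrays.

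The following mature sequences are shown because their probes carry the results. They are RefSeq sequences of GRCm38.p6, assigned to the array names by hairpin arm, printed 5′ to 3′ with the seed in capitals. Arms were assigned by hand for 89 of the 114 star sequences, and RefSeq sequences were matched for 79. The first set comes from the miR-17~92 cluster and its paralogs miR-106b~25 and miR-106a~miR-363, whose guides are known for promoting growth of blood progenitors.
miR-17: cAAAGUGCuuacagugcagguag
miR-17*: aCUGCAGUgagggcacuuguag
miR-20b: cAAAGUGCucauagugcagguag
miR-20b*: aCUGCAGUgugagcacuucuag
miR-93: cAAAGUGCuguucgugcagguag
miR-93*: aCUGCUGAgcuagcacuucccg
miR-106b: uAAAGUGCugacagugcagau
miR-106b*: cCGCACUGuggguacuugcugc
miR-18a: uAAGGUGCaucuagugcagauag
miR-18a*: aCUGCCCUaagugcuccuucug
The guides miR-17, miR-20b, miR-93 and miR-106b have the seed AAAGUGC in common. Their stars do not: only miR-17* and miR-20b* share one (CUGCAGU). The star of miR-17 lies at chr14:115043721-115043742 on the plus strand, miR-20b* at chrX:52742122-52742143 on the minus strand, and miR-93* (chr5:138165536-138165557) and miR-106b* (chr5:138165746-138165767) on the minus strand inside the bounds of Mcm7, a gene for a replication helicase subunit.

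A second set holds stars whose probes outshone those of their guides.
miR-7a: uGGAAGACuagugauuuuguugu
miR-7a*: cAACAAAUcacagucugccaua
miR-330: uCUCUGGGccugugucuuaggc
miR-330*: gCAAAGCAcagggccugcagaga
miR-872: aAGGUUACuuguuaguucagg
miR-872*: uGAACUAUugcaguagccuccu
miR-9: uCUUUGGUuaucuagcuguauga
miR-9*: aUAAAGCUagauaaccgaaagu
miR-141: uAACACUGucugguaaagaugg
miR-141*: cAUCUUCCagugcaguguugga
Finally come hairpins with a guide that is abundant in blood cells, and the miR-488 hairpin, whose star had the smallest genotype p.
let-7i: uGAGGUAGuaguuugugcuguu
let-7i*: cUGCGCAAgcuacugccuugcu
miR-15a: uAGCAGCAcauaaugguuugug
miR-15a*: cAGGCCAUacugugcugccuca
miR-16: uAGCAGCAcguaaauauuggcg
miR-16*: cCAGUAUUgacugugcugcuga
miR-488: uUGAAAGGcuguuucuugguc
miR-488*: cCCAGAUAauagcacucucaa
The guides miR-15a and miR-16 share the seed AGCAGCA, while their stars do not share a seed. Among all matched stars, let-7a*, let-7b*, let-7c-2* and let-7f* shared UAUACAA, and 5 further seeds were shared by a pair of stars each. The first base was U in 9 of 79 stars (11.4%) and in 43 of 72 guides (59.7%), against 40.9% of all 1679 RefSeq mature miRNAs, while C was the first base of 39.2% of stars and 11.1% of guides. A 5′ U is a known feature of guide strands. The GC content was 50% at the median of the stars and 43.5% at the median of the guides. Across the 79 stars, GC content and mean log2 intensity correlated with r = 0.36 (rho = 0.36). Across 67 guides r was 0.15 (rho = 0.19). These are descriptions over probes read on the same 12 arrays. Stars of the 3p arm numbered 51 and those of the 5p arm 28, with median intensities of 92.5 and 62.7.

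Star probes were dimmer than guide probes as a class, with a minority of bright ones. The median of the probes' mean intensities was 74.5 for the 114 stars and 144.1 for the 103 guides. Both genotypes measured 69 stars (60.5%, against 65.1% of all 710 rows) and 75 guides (72.8%). A further 3 stars (let-7d*, miR-455* and miR-503*) were measured in Tff2-KO mice only, 13 in WT mice only and 29 in neither. On all 12 arrays, 32 stars and 57 guides exceeded background, and 6 stars (miR-29a*, miR-29b*, miR-374*, miR-376c*, miR-433* and miR-463*) did so on no array. Doubling the background limit, an alternative chosen after seeing the data, left 28 stars measured in both genotypes. Stars above background per array made up 49.1 to 78.9% (median 67.1%) in Tff2-KO mice and 48.2 to 77.2% (median 73.7%) in WT mice, overlapping ranges. Guides had a lower median share on Tff2-KO arrays too (77.2%, against 82.0% on WT arrays). For the rows outside the 114 stars it was 74.2% on Tff2-KO arrays, against 81.4% on WT arrays. The lower share was thus not particular to stars. The split of 3 against 13 is not given for other rows, so it cannot be read as particular to stars either. Among the 100 brightest rows stood 5 stars and 32 guides.

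The brightest star was miR-17*, at rank 68 of the 710. It read 834, 857 and 1047.5 (lowest, median, highest) in Tff2-KO mice, against 757, 965 and 1227 in WT mice, and the genotypes overlapped. Its guide, at rank 25, read 3572, 4288 and 6422 in Tff2-KO mice, against 2664, 4309 and 4793 in WT mice. The star miR-93* (rank 96) read 361, 450.7 and 466.3 in Tff2-KO mice, against 200, 349 and 621 in WT mice. The WT mice thus spread wider for miR-93*, on both sides of the Tff2-KO values. From the same Mcm7 locus, miR-106b* had raw intensities of 236, 366 and 704 in Tff2-KO mice, against 160, 214 and 568 in WT mice. Raw array means were also higher in Tff2-KO mice (median 720.3, against 492.7 in WT mice). The raw median over the star probes of an array was instead lower (median 68 in Tff2-KO mice, against 85 in WT mice), with overlapping ranges. That over the guide probes was lower in Tff2-KO mice too. Whether array brightness had a part in the raw values of miR-106b* was not tested. After normalisation the log2 fold change of miR-106b* was 0.445. let-7i*, the star of a guide of the let-7 family that restrains growth, read 183, 244 and 331 in Tff2-KO mice, against 184.5, 351 and 455 in WT mice. The star of miR-322, the mouse counterpart of miR-424, read 157, 188 and 296.5 in Tff2-KO mice, against 151, 205 and 257 in WT mice.

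The rest of the 10 brightest stars had dimmer guides, apart from miR-467d*, whose probe and guide probe read alike (mean log2 difference 0.17, brighter star on 7 of 12 arrays). miR-467b* (rank 92), from the large miRNA cluster in an intron of Sfmbt2, read 350, 422.9 and 694 in Tff2-KO mice, against 311, 409.3 and 549 in WT mice. Its guide was above background on 4 of 6 Tff2-KO arrays and 3 of 6 WT arrays. Members of the miR-467 family are close in sequence and may share signal between probes. miR-330* (rank 97), from a hairpin inside the bounds of Eml2, read 250, 323.4 and 432 in Tff2-KO mice, against 262, 518 and 942 in WT mice, whereas miR-330 exceeded background on 0 of 12 arrays. For miR-7a* (rank 98), from a hairpin inside the bounds of Hnrnpk, the values were 329.5, 517 and 732 in Tff2-KO mice, against 139, 313.5 and 562 in WT mice. Its guide miR-7a, known from brain and endocrine cells, exceeded background on 2 Tff2-KO and 3 WT arrays.

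**Figure D1:**
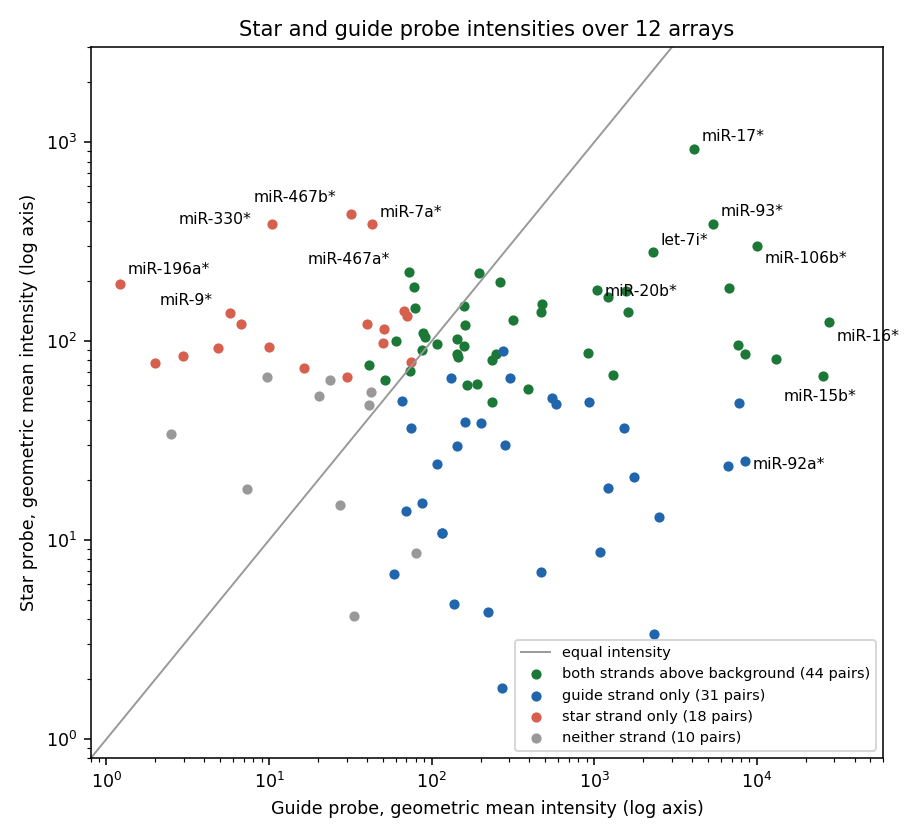
Geometric mean intensity over the 12 arrays of the star probe (vertical log axis) against the guide probe of the same hairpin (horizontal log axis) for 103 pairs, coloured by which strand was measured in both genotypes. Most pairs lie under the line of equal intensity, and the stars of miR-7a, miR-9, miR-196a, miR-330 and miR-467b lie above it with guides not measured in both genotypes.

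Within each array, the star probe was compared with the guide probe of its hairpin as a log2 difference. Such a difference holds the response of 2 probes and is no ratio of strand abundance. The median over the 103 pairs lay between -1.54 and -1.28 (median -1.36) on the Tff2-KO arrays and between -1.72 and -1.09 (median -1.24) on the WT arrays. The star was the brighter probe for 27 to 37 of the 103 pairs on the Tff2-KO arrays and for 30 to 36 on the WT arrays. In 49 pairs the guide probe was brighter on all 12 arrays, in 12 the star probe was, and in 42 the order varied. Across the 103 pairs, the mean log2 intensities of star and guide correlated with r = 0.01 (rho = -0.0026), a description over probe pairs read on the same arrays.

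Guide leads were wide in hairpins whose guide is abundant in blood cells. The difference holds the guide's own intensity, so a bright guide favours a wide lead. For miR-15b and miR-16, known for restraining the cell cycle, the star-minus-guide differences were -8.45 ± 0.676 in Tff2-KO mice, against -8.69 ± 0.6248 in WT mice for miR-15b*, and -7.64 ± 0.748 in Tff2-KO mice, against -7.96 ± 0.656 in WT mice for miR-16* (SD, n = 6 each). The guide miR-16 read 21940, 24873 and 40625 in Tff2-KO mice, against 24873, 27125 and 34552 in WT mice, while miR-16* read 92.8, 118 and 293 in Tff2-KO mice, against 61.3, 133.3 and 170 in WT mice. Both strands were measured. Among 16 pairs with a guide chosen as known from blood cells, 15 had the brighter guide on all 12 arrays, as did 8 of 8 pairs of the miR-17~92, miR-106b~25 and miR-106a~miR-363 clusters, 5 of 6 let-7 pairs and 3 of 3 miR-30 pairs, against 49 of all 103. These counts are a description and no test, since bright guides favour them. They also hold stars that were not measured, among them let-7a*, miR-29a*, miR-30b* and miR-92a*. The miR-92a pair was the far case among the cluster: miR-92a read 6114, 7631 and 8535 in Tff2-KO mice, against 7909, 9673 and 10549 in WT mice, while miR-92a* exceeded background on 3 of 6 Tff2-KO and 2 of 6 WT arrays.

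The 12 stars brighter than their guides on all arrays were miR-7a*, miR-9*, miR-135a*, miR-141*, miR-196a*, miR-294*, miR-302b*, miR-330*, miR-467a*, miR-467b*, miR-872* and miR-881*. Only for miR-467a* and miR-141* were both strands measured in both genotypes. miR-467a* had medians of 247 in Tff2-KO mice, against 190 in WT mice, reaching at most 375.3 in Tff2-KO mice, against 325 in WT mice, and its guide read 68.7, 94.3 and 108 in Tff2-KO mice, against 29.5, 61.9 and 86.8 in WT mice. The difference was 1.43 ± 0.761 in Tff2-KO mice, against 1.81 ± 0.751 in WT mice (SD, n = 6 each). miR-141* (miR-141 marks epithelial cells) read 123, 144.4 and 164 in Tff2-KO mice, against 116, 141.6 and 232 in WT mice, with a difference of 1.13 ± 0.587 in Tff2-KO mice, against 0.68 ± 0.517 in WT mice (SD, n = 6 each). Of the other 10, the miR-9 hairpin is one whose 2 strands are both known to act in neurons. miR-9* read 82.7, 131.7 and 151.7 in Tff2-KO mice, against 102, 173 and 186 in WT mice, while miR-9 exceeded background on 0 of 12 arrays and read 1, 12.6 and 26.7 in Tff2-KO mice, against 1, 2.16 and 19.2 in WT mice. The star values of miR-9 lay above all its guide values. Over the 44 pairs with both strands measured, the guide led on all arrays in 23, the star in 2 and neither in 19.

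By genotype, no star sequence passed the test. limma, fitted over all 710 rows with Benjamini-Hochberg adjustment over them, gave 0 of 114 stars at an adjusted p under 0.05 (0 of 710 rows, 0%), and the smallest among the stars was 0.335. Unadjusted, 5 stars had a p under 0.05 (4.39%, against 9.44% of all rows): 2 higher in Tff2-KO mice (3.8% of all rows) and 3 lower (5.63% of all rows). Both shares were below those of the array as a whole. The median log2 fold change, Tff2-KO over WT, was -0.09 over the 114 stars, -0.09 over the measured ones, 0.03 over the guides and 0.01 over all rows. The median standard error of a measured star was 0.30 on the log2 scale. No star had genotypes that did not overlap, against 8 of 710 rows (1.13%).

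Of the stars with higher means in Tff2-KO mice, miR-872* (Mir872 lies inside the bounds of Ift74) read 79.3, 114 and 148 in Tff2-KO mice, against 55.3, 73.9 and 108 in WT mice (log2 fold change 0.55, SE 0.22, limma adjusted p = 0.507, unadjusted p = 0.0302). The values overlapped. miR-7a*, which is in the study's list of differing miRNAs chosen on these same mice, had a log2 fold change of 0.74 (SE 0.33, limma adjusted p = 0.507, unadjusted p = 0.0469). A star of that list without a guide row, miR-1982*, read 37.7, 95.5 and 128.3 in Tff2-KO mice, against 36.0, 58.1 and 74.3 in WT mice (log2 fold change 0.61, SE 0.30, limma adjusted p = 0.519). miR-106b* had a log2 fold change of 0.445 (SE 0.23, limma adjusted p = 0.531), and miR-483*, from an intron of the growth factor gene Igf2, one of 0.71 (SE 0.39, limma adjusted p = 0.532). miR-483* read 113, 156 and 239 in Tff2-KO mice, against 34.2, 112 and 192.2 in WT mice. For miR-503*, measured in Tff2-KO mice only, raw intensities were 32, 54 and 92 in Tff2-KO mice, against -8, 48 and 80 in WT mice.

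Of the stars with lower means in Tff2-KO mice, miR-488* had the smallest p and is in the study's list, so this is no independent evidence. Raw intensities were 4, 22 and 80 in Tff2-KO mice, against 68, 78 and 96 in WT mice (limma adjusted p = 0.335, unadjusted p = 0.00525). It exceeded background on 2 of 6 Tff2-KO arrays and 6 of 6 WT arrays, so no fold is given, and the highest Tff2-KO value reached into the WT range. miR-20b* read 66.7, 167 and 227 in Tff2-KO mice, against 168, 222.8 and 333.5 in WT mice (log2 fold change -0.64, SE 0.31, limma adjusted p = 0.516). In Tff2-KO mice, 3 values thus lay under the lowest WT value. miR-330* had a log2 fold change of -0.56 (SE 0.31, limma adjusted p = 0.532). miR-881*, from an X-linked cluster known from testis, read 59.7, 115 and 157 in Tff2-KO mice, against 119, 149 and 169 in WT mice (log2 fold change -0.43, SE 0.24, limma adjusted p = 0.532). miR-15a*, from the Dleu2 locus that miR-15a shares with miR-16, read 133.5, 153.98 and 248 in Tff2-KO mice, against 150, 225 and 259.5 in WT mice (log2 fold change -0.37, SE 0.20, limma adjusted p = 0.532). For miR-133a*, the star of a muscle miRNA, measured in WT mice only, normalised intensities were 55.3, 67.4 and 147 in Tff2-KO mice, against 70.3, 118.7 and 128.3 in WT mice. Unadjusted p-values of limma were also under 0.05 for miR-29b* and miR-463*, which exceeded background on no array.

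**Figure D2:**
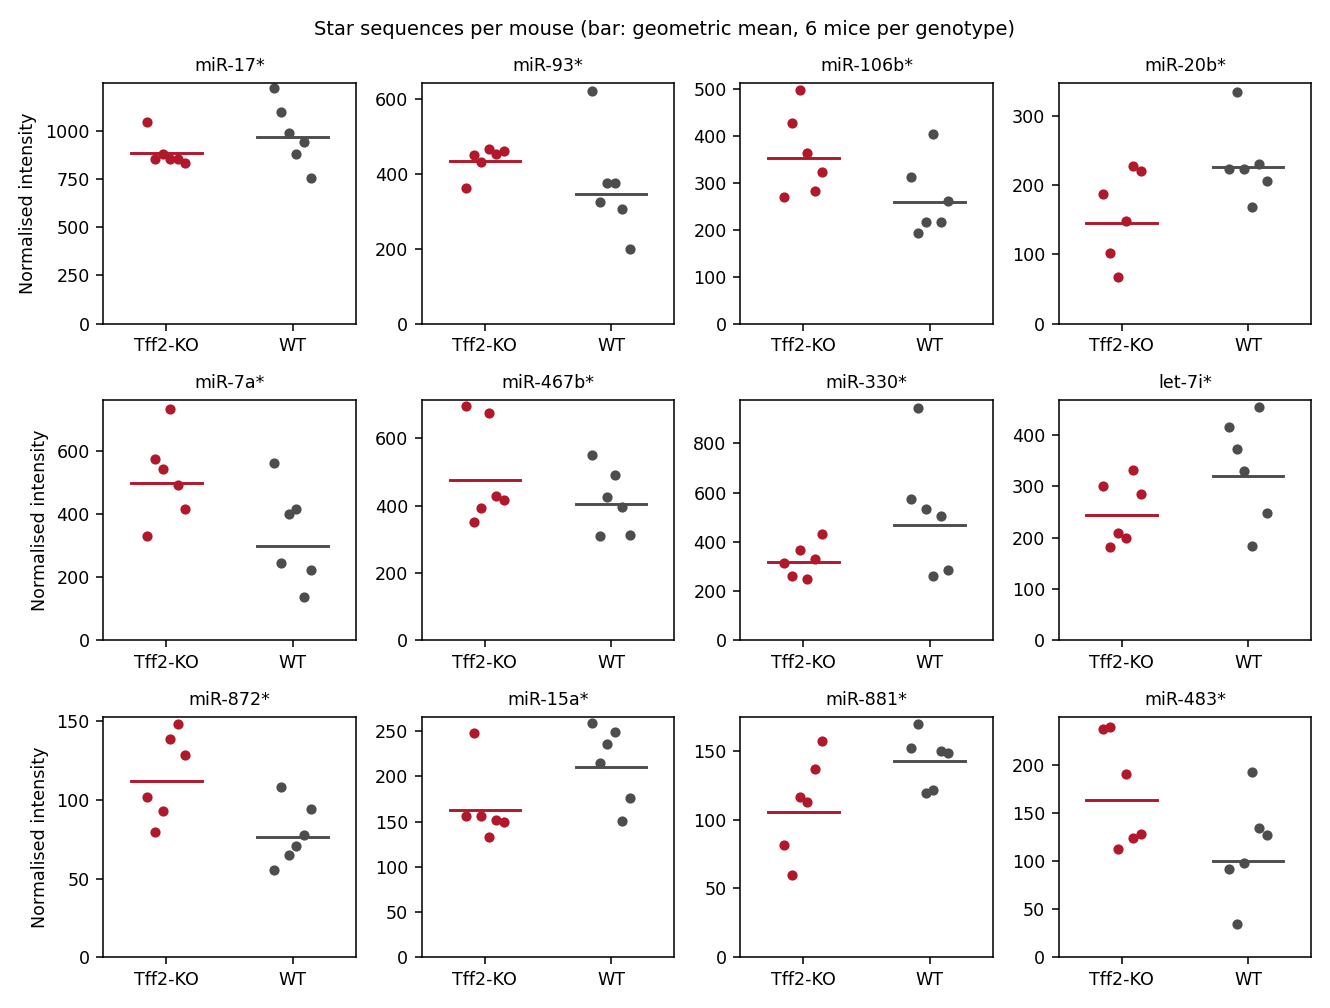
Normalised intensity (linear axis from 0) of 12 star sequences in each mouse, Tff2-KO left and WT right, with the geometric mean of 6 mice as a bar. Values of both genotypes overlap in every panel.

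The same stars were then grouped by family, cluster or tissue of their hairpins. The groups hold the fold changes of the fit above, as a description without a further test. In the let-7 group, 2 of 8 stars had a fold change above 0 and 6 below, with a median log2 fold change of -0.21 over all 8 and of -0.38 over the 3 measured. The miR-17~92 group and its paralogs split evenly, 4 above and 4 below. Of 4 miR-30 stars, 3 were above and 1 below 0, with a median of 0.35 over all 4 and of -0.56 over the 2 measured. The muscle group held 1 star, miR-133a*, given above. Stars of blood cell guides had 11 above and 9 below 0, a median of 0.05 over all 20 and of -0.04 over the 14 measured. Of 13 stars from the imprinted Dlk1-Dio3 cluster, 4 were above and 9 below 0, with a median of -0.36. Of these stars 3 were measured, with a median of -0.44. One of these, miR-127*, read 65.3, 126 and 181.2 in Tff2-KO mice, against 105, 168 and 270 in WT mice. All 4 stars of the X-linked testis cluster had a fold change below 0 (median -0.34 over all 4 and over the 2 measured). In the Sfmbt2 cluster all 6 stars were measured, with 4 above and 2 below 0. The 7 stars of brain hairpins had a median of -0.17 (-0.16 over the 5 measured) and the 5 of gut, liver and epithelial hairpins one of -0.09 (-0.09 over the 3 measured). Probes that were not measured stand near background, so their fold changes are given here only within these counts and medians. Over all 710 rows the median was 0.01, and 50.4% of rows had a fold change above 0, against 42.1% of stars.

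Whether the balance of the strands differed by genotype was tested on the within-array differences over all strand pairs of the array, which add 4 pairs of the stars left out above and 74 pairs of 3p and 5p rows. Here too none of the 103 star pairs had an adjusted p under 0.05 (0% of all strand pairs), and the lowest value in limma was 0.445. Unadjusted, 10 star pairs had a p under 0.05 (9.71%, against 9.94% of all strand pairs): 6 with a higher difference in Tff2-KO mice (5.52% of all pairs) and 4 with a lower one (4.42%). In only 1 of these 10 were both strands measured. That pair was miR-20b, with a difference of -3.06 ± 0.942 in Tff2-KO mice, against -1.97 ± 0.508 in WT mice (SD, n = 6 each), lower by 1.09 in Tff2-KO mice (-1.09, SE 0.45, limma adjusted p = 0.445, unadjusted p = 0.0324). Its star had the lower mean in Tff2-KO mice and its guide the higher one: miR-20b read 913, 1129 and 1768 in Tff2-KO mice, against 684, 847 and 1297 in WT mice (log2 fold change 0.45, SE 0.23). miR-17, whose star has the seed of miR-20b*, had a difference of -2.34 ± 0.342 in Tff2-KO mice, against -1.95 ± 0.318 in WT mice (SD, n = 6 each, limma adjusted p = 0.801). Both strands of miR-17 and miR-20b, printed above, are close in sequence. Their probes may share signal, which was not tested, so miR-17 is no independent case.

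Among pairs with both strands measured, those with the smallest p in the other direction were miR-467d* and miR-18a*, while 6 star pairs with a strand not measured had smaller ones. For miR-467d*, the difference was 0.59 ± 0.713 in Tff2-KO mice, against -0.25 ± 0.648 in WT mice (SD, n = 6 each; limma adjusted p = 0.552). miR-18a* read 74.7, 224 and 271 in Tff2-KO mice, against 28.3, 113.5 and 249 in WT mice, and its difference from miR-18a was -1.21 ± 0.833 in Tff2-KO mice, against -2.28 ± 1.05 in WT mice (SD, n = 6 each; limma adjusted p = 0.552). The miR-33 pair, from a hairpin within the lipid regulator gene Srebf2, had a difference of 1.99 ± 3.03 in Tff2-KO mice, against -0.21 ± 0.938 in WT mice (SD, n = 6 each), and raw miR-33 was -16, 48 and 92 in Tff2-KO mice, against 72, 98 and 160 in WT mice. The miR-708, miR-145 and miR-877 pairs had limma adjusted p of 0.759, 0.801 and 0.801. For miR-7a, whose guide was not measured, the difference was 3.85 ± 1.25 in Tff2-KO mice, against 2.49 ± 0.684 in WT mice (SD, n = 6 each; limma adjusted p = 0.445). The median genotype difference of the balance was -0.09 over the 103 pairs and -0.13 over all strand pairs. Star and guide had fold changes of the same sign in 25 of 44 pairs with both strands measured.

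**Figure D3:**
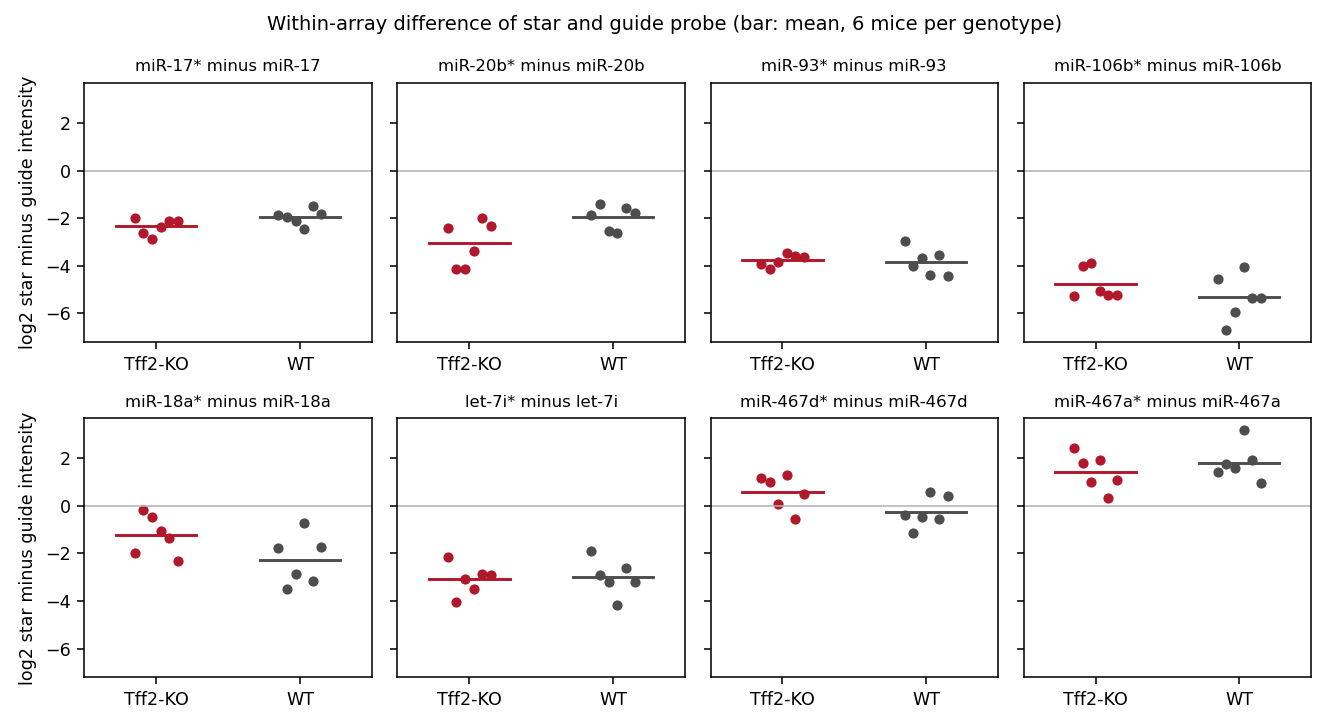
Log2 intensity of the star probe minus that of the guide probe on each array for 8 hairpins, Tff2-KO left and WT right, with the mean of 6 mice as a bar and a line at 0 (equal intensity). The miR-20b panel shows 3 Tff2-KO mice under all WT mice, and the miR-467a panel lies above 0 in all mice.

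**Figure D4:**
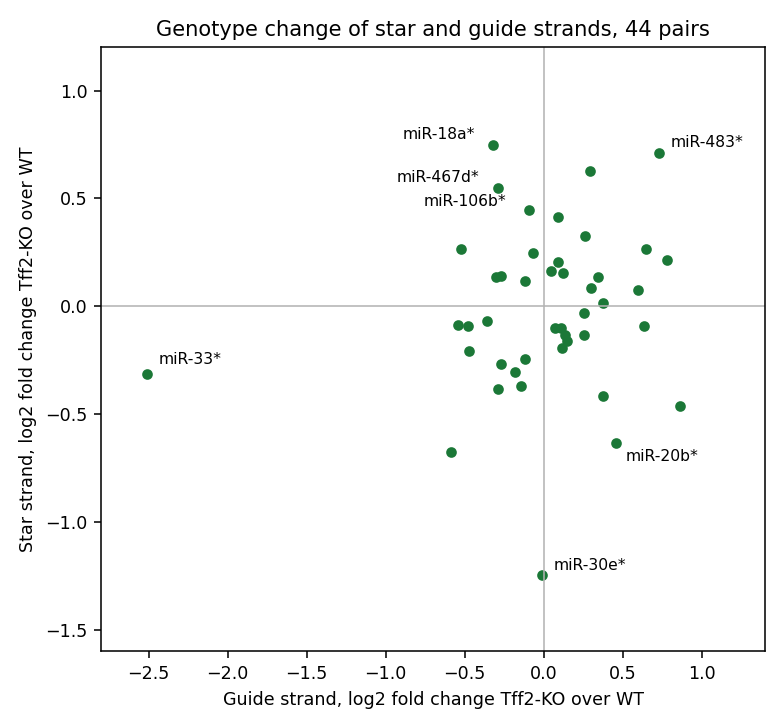
Log2 fold change, Tff2-KO over WT, of the star strand (vertical axis) against that of the guide strand (horizontal axis) for the 44 pairs with both strands measured in both genotypes. Points scatter through all 4 quadrants, with the miR-33 guide at the far left and miR-30e* lowest.

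Across the 12 mice, star and guide intensities of a hairpin correlated weakly. For the 44 pairs with both strands measured, Pearson's r had a median of -0.04, and 19 were above 0. Of these pairs 0 passed a permutation test after adjustment over the 75 measured strand pairs (0%), and 3 had an unadjusted p under 0.05, against 7 of the 75. For each pair, r was also taken without the 2 mice whose guide value lay farthest from its median. For miR-106b, r was -0.71 (permutation p = 0.00909, adjusted p = 0.435) and rho was -0.66 (permutation p = 0.0231, adjusted p = 0.305). Without its 2 mice r was -0.54, and within genotypes r was -0.73 in Tff2-KO and -0.83 in WT mice. miR-483 had r = 0.72 (permutation p = 0.0184, adjusted p = 0.435) and rho = 0.71 (permutation p = 0.0131, adjusted p = 0.305). Its r was 0.50 without its 2 mice, 0.50 in Tff2-KO and 0.89 in WT mice. The correlation of let-7g (r = -0.67, permutation p = 0.0165, adjusted p = 0.435, rho = -0.42, permutation p = 0.170, adjusted p = 0.612) was -0.66 in Tff2-KO and -0.71 in WT mice. Without its 2 mice r was -0.17, so the pooled value leaned on them, though leaving out extreme guide values also narrows the range. Without normalisation between arrays 3 star pairs passed (6.82%, against 14.7% of the 75 strand pairs) and the median r was 0.18. With median scaling 3 passed (6.82%, against 10.7% of the 75) with a median r of 0.01, while cyclic loess gave 0 and -0.08.

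No star passed the test of a difference between the sexes in the genotype contrast. The genotype-by-sex term of limma had an adjusted p under 0.05 for 0 of 114 stars (0.141% of all rows), with a smallest adjusted p of 0.428, and an unadjusted p under 0.05 for 13 (11.4%, against 10% of all rows). Among the named stars these were miR-20b*, with log2 fold changes of -1.24 in males and -0.04 in females (limma adjusted p = 0.498), miR-483*, with 1.46 in males and -0.04 in females (limma adjusted p = 0.488), and miR-1982*, with 1.22 in males and -0.0052 in females (limma adjusted p = 0.488). The genotype effect had the same sign in both sexes for 62 of 114 stars, against 368 of 710 rows.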

How the data were processed

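Blood cell RNA of 6 Tff2-KO and 6 WT mice was hybridised to 1 array per mouse. The deposited raw intensity per miRNA is the authors' median signal after background subtraction and the median over replicate spots, without normalisation between arrays. The deposited value table holds intensity values that the authors quantile normalised, and served as an alternative. With limma 3.58.1 in R 4.3.3, raw intensities of the 12 arrays were quantile normalised together, floored at 1 and taken to log2. At that floor stood 79 of 1368 star values (5.77%). All 710 rows (for strand balance, all strand pairs) were fitted with lmFit and eBayes, with Benjamini-Hochberg adjustment over all of them. Scripts were tested on simulated data. Correlations used 100000 permutations. Arrays give no counts, so precision is limited by their number. The fold of a single named star is given only where both genotypes were measured, while counts and medians over lists also cover stars not measured, and strand balances are given for named pairs. Each mouse was 1 replicate.

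The members, lists and tests were chosen with earlier results of these data known. Named are the 10 brightest stars, the 6 smallest p in each direction among stars measured in a genotype, stars brighter than their guides with both measured, the 4 smallest p in each direction for the strand balance among pairs with both strands measured in both genotypes, stars of the study's list and up to 3 members per list. Other miRNAs named serve as guides, markers or examples of a count, and were chosen after their values were seen. Alternatives were the authors' value table, no normalisation, median and 75th percentile scaling, cyclic loess, normexp with an offset of 50, a pseudocount of 16, brighter rows only, array weights, sex as covariate, a robust intensity trend, a replicate block, one sex only, each mouse left out and the methods' t-test. Plots used Python 3.11.15 with matplotlib 3.10.9. Target predictions and qRT-PCR were not used here.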

Additional observations from a re-analysis of the deposited data

Results flagged for a closer look

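Of 86 groups of 6 mice examined for the named stars, 9 held 1 mouse far from the other 5 on the linear intensity scale. Stars were named partly by p or brightness, and some values stood at the floor. The count is therefore not compared with chance. In Tff2-KO mice, miR-15a* read 248 in replicate 2 (others 133.5 to 157), miR-17* read 1047.5 in replicate 1 (others 834 to 880.1), miR-322* read 296.5 in replicate 3 (others 157 to 190.3), miR-463* read 43.2 in replicate 1 with all others at the floor of 1, miR-503* read 34.7 in replicate 2 (others 64.7 to 82.7) and miR-93* read 361 in replicate 1 (others 431.7 to 466.3). In WT mice, let-7c-1* read 108 in replicate 5 (others 59.8 to 69.7), miR-20b* read 333.5 in replicate 2 (others 168 to 229.7) and miR-433* read 36.3 in replicate 1 (others 1 to 12.7).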

How the results depend on the processing

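In the tests by genotype, no star sequence and no star-minus-guide difference had an adjusted p under 0.05 in any alternative run. Counts at an unadjusted p under 0.05 moved with the setting, from 2 stars higher and 3 lower in Tff2-KO mice and 6 pairs higher and 4 lower. They were 1 and 7 stars and 3 pairs higher without normalisation, 5 and 5 stars and 3 pairs higher with median scaling, 6 stars lower and 3 pairs higher with 75th percentile scaling, 1 star and 2 pairs lower with cyclic loess or a pseudocount, and 1 star lower with 2 pairs higher and 1 lower among brighter rows. Stars higher numbered 1 with sex as covariate and with the methods' t-test, and 4 with array weights (6 lower) or an intensity trend. Males alone gave 5 higher and 12 lower stars and 7 lower pairs, and females alone 1 higher star and 2 higher pairs. Leaving out each mouse in turn gave 0 to 5 stars higher (0 without Tff2-KO replicate 4 or 6, 5 without WT replicate 4), 2 to 7 lower (7 without WT replicate 4 or 6), 1 to 7 pairs higher (1 without Tff2-KO replicate 3 or 4, 2 without WT replicate 5 or 6), 1 to 5 lower (1 without Tff2-KO replicate 3 or WT replicate 1, 2 or 5), 12 to 14 stars brighter than their guides on all arrays, medians of star minus guide of -1.43 to -1.30 in Tff2-KO mice, against -1.32 to -1.21 in WT mice, and 6 to 18 stars with an unadjusted genotype-by-sex p under 0.05, where 1 star passed after adjustment without Tff2-KO replicate 5 and 0 otherwise. The cause was not tested. Shares over all rows or all strand pairs are not given for these settings, so the counts cannot be read as particular to stars. In the main run, 9.44% of all rows and 9.94% of all strand pairs had an unadjusted limma p under 0.05 by genotype.

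The median star-minus-guide difference was -1.58 in Tff2-KO mice without normalisation and with median or 75th percentile scaling, -1.08 with a pseudocount, -1.90 in Tff2-KO mice, against -1.81 in WT mice with cyclic loess, and -0.72 in Tff2-KO mice, against -0.75 in WT mice with normexp. Cyclic loess put 20 star probes above their guides on all arrays. Of 723 log2 values of named stars and pairs under all alternatives, 10 changed sign, none of them past the threshold: miR-17* 0.37 without normalisation, 0.51 with median and 0.34 with 75th percentile scaling, miR-322* 0.0069 and 0.15 without normalisation and with median scaling, miR-93* -0.014 in males, and in females miR-467a* -0.18, miR-1982* -0.0069, miR-483* -0.040 and the miR-145 pair 0.27. The 75th percentile scaling moved the median of all rows to -0.12 and that of stars to -0.29. Doubling the background limit gave 28 measured stars, and 3 star pairs correlated without normalisation and with median scaling, alternatives chosen after seeing the data. Of all 75 measured strand pairs, 11 and 8 did so.

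Same-numbered mice deviated together with correlations of -0.17 to 0.106, of which 2 were above 0.1, and 1 of 12 samples correlated best with its own number. No pairing by number was seen, though so few numbers cannot exclude it. With a replicate block, 0 stars were higher and 2 pairs lower at an unadjusted p under 0.05. Weak probes near background limit these results.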
